A study of Mus musculus with 28 samples.

Results

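Chemokines and their receptors were followed in liver tissue from C57BL/6J males that were kept on an intermittent diet. The genes were taken by name: every gene with a probe set of its own whose symbol begins with Ccl, Cxcl, Ccr or Cxcr and a digit, plus Cx3cl1, Cx3cr1, Xcl1 and Xcr1, with 1 receptor left aside. This gave 51 genes, 34 ligands and 17 receptors, out of 18820 genes with such a probe set. Where a gene had several probe sets, the brightest stood for it.

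The 28 livers, 1 array each, formed 4 groups. Mice of the switched group (n = 8) ate a moderate-fat food freely from 9 weeks until 12 months of age. They then changed to the intermittent diet and were sampled at 24 months. Lifelong mice had followed the intermittent diet from 9 weeks of age and were sampled at 6 months (n = 6), 12 months (n = 7) or 24 months (n = 7). The intermittent diet gave the moderate-fat food (25% of energy from fat) for a week. In the next week it gave rations at 60% of what control mice ate. No group was kept off this diet throughout, so no comparison in this text sets it against its absence. Switched and lifelong livers at 24 months come from mice whose diets differed before 12 months of age. The labels name no genetic change. All mice were fasted before sampling and had been given carboxymethyl cellulose by gavage between 2 fasts. The submitters' array names begin with 1 of 3 prefixes (G150, G151, G152), each of which held livers of every group. Values are log2 expression, so that a difference of 1 is a doubling.

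Chemokines are small secreted proteins that attract white blood cells, which carry matching G protein-coupled receptors. Inflammatory chemokines are made on demand by macrophages, endothelium, stellate cells and hepatocytes and draw monocytes, neutrophils and T cells into the liver. Homing chemokines, such as Ccl19 and Cxcl13, place lymphocytes within lymphoid tissue and within the lymphoid clusters that can form in other organs. In whole liver, fewer cells of a type and less RNA per cell cannot be told apart. Hepatocyte markers (13 measured) averaged between 12.4 and 12.7 on the log2 scale in every liver of the 4 groups, as the tissue label states. Of the 51 genes, 17 lay among the dimmest 30% of probe sets on these arrays, below 4.04, and the array medians were nearly equal, at 5.2 to 5.3.

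The promoters of Ccl19 and Cxcl14 are shown because both genes passed the test at 24 months, and that of Cxcl10 because it lies beside Cxcl11, which passed in both comparisons with 6 months and for which no promoter is shown. Each runs 5′ to 3′ on the gene's strand, from 250 bases before to 50 after the transcription start, and is taken from RefSeq, build GRCm38.p6. Ccl19 is at chr4:42756316-42756615, Cxcl14 at chr13:56296502-56296801 and Cxcl10 at chr5:92348840-92349139, all on the minus strand. The Cxcl14 stretch, with its matches, lies wholly inside that gene's annotated span (chr13:56288643-56296811). Its start is thus not the outermost one of the gene, unlike those of Ccl19 and Cxcl10. Capitals mark matches, on either strand, to a fixed letter pattern chosen for each of 3 motifs. These are kappa-B, bound by NF-kappa-B, and the interferon-stimulated response element (ISRE), bound by interferon regulatory factors. The last is the gamma-activated site (GAS), bound by STAT proteins.
Ccl19: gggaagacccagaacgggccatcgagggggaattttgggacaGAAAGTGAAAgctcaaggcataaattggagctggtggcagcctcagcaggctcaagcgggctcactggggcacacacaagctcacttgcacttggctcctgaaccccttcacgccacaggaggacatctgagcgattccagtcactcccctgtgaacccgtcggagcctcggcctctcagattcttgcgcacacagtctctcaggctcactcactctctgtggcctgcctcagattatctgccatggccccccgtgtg
Cxcl14: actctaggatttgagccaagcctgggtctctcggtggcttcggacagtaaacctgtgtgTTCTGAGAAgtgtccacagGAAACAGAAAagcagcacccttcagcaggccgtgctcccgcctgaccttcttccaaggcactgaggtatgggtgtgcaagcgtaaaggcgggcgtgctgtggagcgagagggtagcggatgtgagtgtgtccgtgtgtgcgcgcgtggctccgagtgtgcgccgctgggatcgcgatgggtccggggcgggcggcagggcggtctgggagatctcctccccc
Cxcl10: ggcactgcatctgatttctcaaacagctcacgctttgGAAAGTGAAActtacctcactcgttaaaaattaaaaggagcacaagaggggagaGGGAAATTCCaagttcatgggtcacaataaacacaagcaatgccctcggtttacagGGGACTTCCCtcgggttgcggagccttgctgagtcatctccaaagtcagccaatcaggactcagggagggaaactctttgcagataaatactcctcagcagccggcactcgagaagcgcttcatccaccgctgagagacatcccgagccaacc

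The ISRE match of Ccl19, at positions -208 to -199 from the start, reads GAAAGTGAAA, and Cxcl10 holds the same letters at positions -213 to -204. Cxcl14 held a GAS match and an ISRE match within 30 bases of each other, and Cxcl10 held kappa-B at 2 places besides its ISRE. Stretches of 51 bases are shown for Cxcl1 (chr5:90891154-90891204), Cxcl2 (chr5:90903782-90903832) and Cxcl3 (chr5:90786008-90786058), all on the plus strand, because these neutrophil attractants share 1 kappa-B run, read on both strands.
Cxcl1: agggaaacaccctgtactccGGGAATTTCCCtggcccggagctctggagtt
Cxcl2: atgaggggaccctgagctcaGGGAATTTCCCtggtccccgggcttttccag
Cxcl3: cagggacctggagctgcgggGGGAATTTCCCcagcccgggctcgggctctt

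Of the 51 genes, 37 matched a promoter in the RefSeq table, with 39 promoters in all. Kappa-B was found in 17.9% of these 39, against 4.01% of all 32851 promoters of the same length. ISRE was found in 7.69% against 3.44%, and GAS in 10.3% against 8.30%. These are matches of letters and show no binding. The shares hold for the patterns chosen here, and other forms of each motif were not searched.

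Between 6 and 24 months of age in the lifelong groups, 4 of the 51 genes rose and 0 fell. They were Cxcl11, Cxcl14, Ccl19 and Cxcr5 (limma, adjusted p under 0.05 over all 35556 probe sets). Across all probe sets 4.73% passed in this comparison, 2.1% in the upward direction. Among the 18820 genes 6.23% passed (1173), 567 of them upward. The 7.84% of chemokine genes that passed is thus near the gene share over both directions. All 4 were upward, and whether their share differs from the upward share of genes was not tested. At 12 against 6 months only Cxcl11 passed (1 of 51, against 0.591% of all probe sets). In 24 against 12 months, 0 of 51 passed (0.0253% of all probe sets), and in switched against lifelong livers at 24 months 0 of 51 passed (0.0197% of all probe sets). At an unadjusted p under 0.05 the counts were 3 of 51 at 12 against 6 months (13.1% of all probe sets), 12 of 51 at 24 against 6 months (19.2%), 14 of 51 at 24 against 12 months (11.1%) and 4 of 51 in switched against lifelong livers (7.58%). The age comparisons share their 6-, 12- and 24-month livers and are not independent of each other. In the lifelong groups age and time on the diet rise together and cannot be told apart.

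The median difference over the 51 genes was -0.03 at 12 against 6 months, against 0.01 over all genes. It was 0.10 at 24 against 6 months, against -0.00 over all genes, and 0.12 at 24 against 12 months, against -0.01. In switched against lifelong livers it was 0.04, against -0.00. No chemokine gene had non-overlapping groups in any comparison, where 0.994%, 2.14%, 0.287% and 0.0478% of all genes did, in the same order of comparisons.

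**Figure D1:**
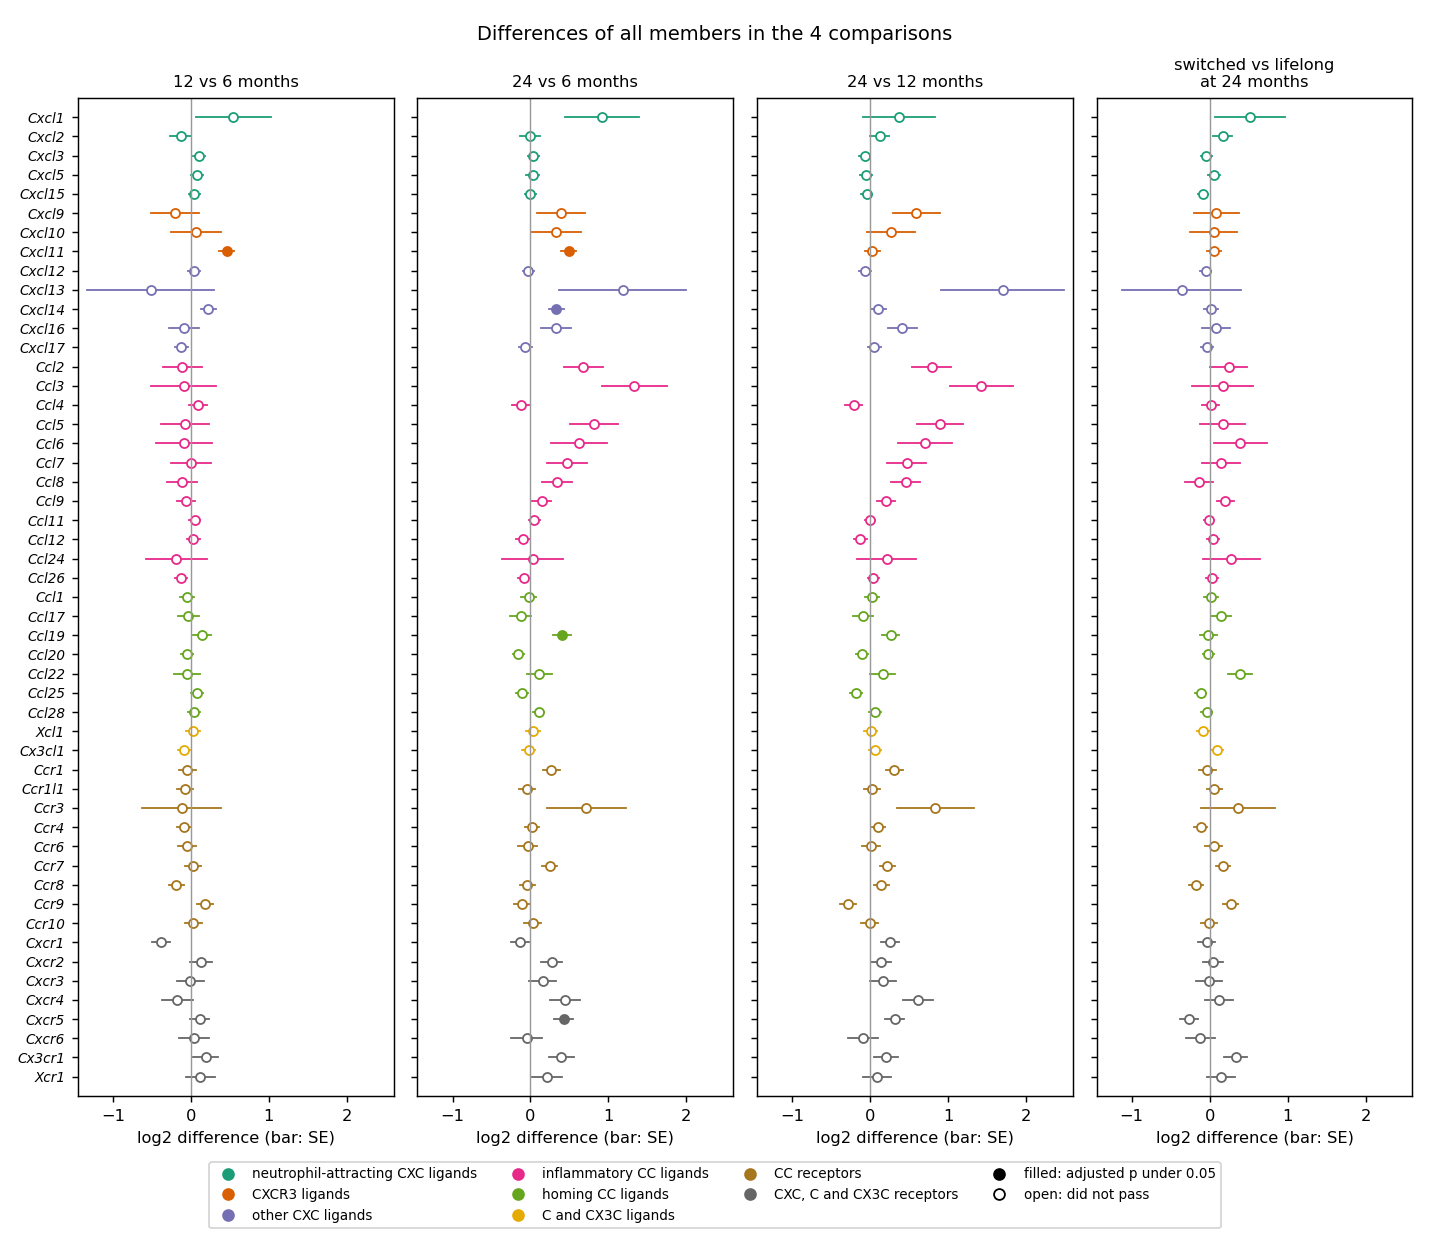
Log2 difference of each of the 51 genes (rows, coloured by role) in the 4 comparisons (panels), with the standard error of the fit as a bar. Filled points passed at an adjusted p under 0.05: Cxcl11 at 12 against 6 months, and Cxcl11, Cxcl14, Ccl19 and Cxcr5 at 24 against 6 months; open points did not pass.

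Cxcl11 belongs with Cxcl9 and Cxcl10 to the interferon-induced ligands of CXCR3, a receptor of activated T cells and NK cells. RefSeq annotates Cxcl11 as a transcribed pseudogene in the C57BL/6J reference (chr5:92359544-92363296), so the values describe a transcript of that locus. Its level ran from 5.97 to 6.60 at 6 months (median 6.21), from 6.52 to 7.23 at 12 months (median 6.65) and from 6.50 to 7.01 at 24 months (median 6.65). All 7 livers at 12 months and all 7 at 24 months lay above the 6-month mean, with 5 and 6 of them above the highest 6-month liver. The difference was 0.46 ± 0.09 (SE) at 12 against 6 months (limma, adjusted p = 0.0327) and 0.49 ± 0.09 at 24 against 6 months (adjusted p = 0.00407), with 0.03 ± 0.09 between 24 and 12 months (adjusted p = 0.945).

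Within the array prefixes, Cxcl11 differed at 12 against 6 months by 0.47 in G150, 0.36 in G151 and 0.49 in G152. At 24 against 6 months it differed by 0.48 in G150, by 0.02 in G151, where each group had 1 liver, and by 0.84 in G152. The 24-month call held in each of 13 fits that left out 1 liver, with adjusted p between 0.000965 and 0.0218. The 12-month call was lost in 7 of 13 such fits, without 6-month replicate 2, 3, 4 or 6 or 12-month replicate 3, 4 or 5 (adjusted p 0.0539 to 0.0964), and also without the prefix term (0.0534) and with only the groups compared (0.104). Switched livers ran from 6.43 to 7.02 (median 6.75) against 6.50 to 7.01 in lifelong livers of 24 months, a difference of 0.06 ± 0.09 (adjusted p = 0.939).

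The other CXCR3 ligands did not pass. Cxcl9 ran from 8.23 to 9.45 at 6 months (median 8.72), from 7.53 to 9.86 at 12 months (median 8.44) and from 8.22 to 9.84 at 24 months (median 9.43). Its widest difference, 0.59 ± 0.30 at 24 against 12 months, had an adjusted p of 0.473. Cxcl10 had medians of 6.38, 6.27 and 6.82 at 6, 12 and 24 months with overlapping ranges, and 1 switched liver reached 8.42. Its differences lay between 0.05 and 0.33, with adjusted p of 0.636 or more.

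Cxcl14, a chemokine made by epithelial cells, ran from 5.10 to 5.67 at 6 months (median 5.36) and from 5.56 to 5.88 at 24 months (median 5.69), and at 12 months the median was 5.58 and the highest liver 5.75. The 24-month livers all lay above the 6-month mean, and 4 of 7 exceeded the highest 6-month liver. The difference at 24 against 6 months was 0.33 ± 0.10 (limma, adjusted p = 0.0483), and within G150, G151 and G152 it was 0.33, 0.19 and 0.43. At 12 against 6 months it was 0.23 ± 0.10 (adjusted p = 0.311). The 24-month call was close to the threshold: it was lost in 11 of 13 fits without 1 liver (6-month replicates 1, 2, 3, 4 and 6, and 24-month replicates 1 to 6; adjusted p 0.0551 to 0.121). It was also lost on all 28 arrays after a repeated quantile normalisation (adjusted p = 0.0545), after centring on the array medians (0.0525) and with trend and robust moderation (0.0537), and with only the groups compared (0.0781). Switched livers ran from 5.30 to 6.07, with a difference of 0.01 ± 0.09 from lifelong livers (adjusted p = 0.990).

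Ccl19, the ligand of CCR7 that guides T cells and dendritic cells into lymphoid tissue, ran from 6.30 to 6.56 at 6 months (median 6.42), from 6.39 to 6.81 at 12 months (median 6.45) and from 6.50 to 7.17 at 24 months (median 6.79). At 24 months 6 of 7 livers exceeded the highest 6-month liver. The difference at 24 against 6 months was 0.41 ± 0.11 (limma, adjusted p = 0.0363), with 0.37, 0.48 and 0.53 within G150, G151 and G152. At 24 against 12 months it was 0.26 ± 0.11 (adjusted p = 0.358). Ccl19 had 5 probe sets, whose mean differences at 24 against 6 months lay between 0.41 and 0.47; they are not independent readings, and near-identical copies of the gene could share them. The call was lost in 8 of 13 fits without 1 liver (6-month replicates 2, 3, 4 and 6, and 24-month replicates 1, 3, 5 and 6; adjusted p 0.0521 to 0.120). It was also lost with only the groups compared (adjusted p = 0.0692), in G150 alone (0.311) and without the 2 arrays whose names carry a suffix (0.0554). In switched livers it ran from 6.45 to 7.18 (median 6.80), -0.02 ± 0.11 from lifelong livers (adjusted p = 0.991).

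Cxcr5, the receptor by which B cells and follicular helper T cells find Cxcl13, ran from 3.22 to 3.85 at 6 months (median 3.69), from 3.48 to 4.06 at 12 months (median 3.80) and from 3.78 to 4.46 at 24 months (median 4.05). It was among the dimmest 30% of probe sets. The 24-month livers all lay above the 6-month mean, 5 of 7 above the highest 6-month liver. The difference was 0.43 ± 0.12 (limma, adjusted p = 0.0441), with 0.44, 0.60 and 0.25 within G150, G151 and G152. It was lost in 9 of 13 fits without 1 liver (6-month replicates 2, 3, 4, 5 and 6, and 24-month replicates 1, 3, 6 and 7; adjusted p 0.0542 to 0.125). It was also lost with only the groups compared (adjusted p = 0.112), in G150 alone (0.283) and without the 2 suffix arrays (0.0658). In the switched group it ran from 3.44 to 4.11 (median 3.80), and the difference from lifelong livers was -0.27 ± 0.12 (adjusted p = 0.588).

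**Figure D2:**
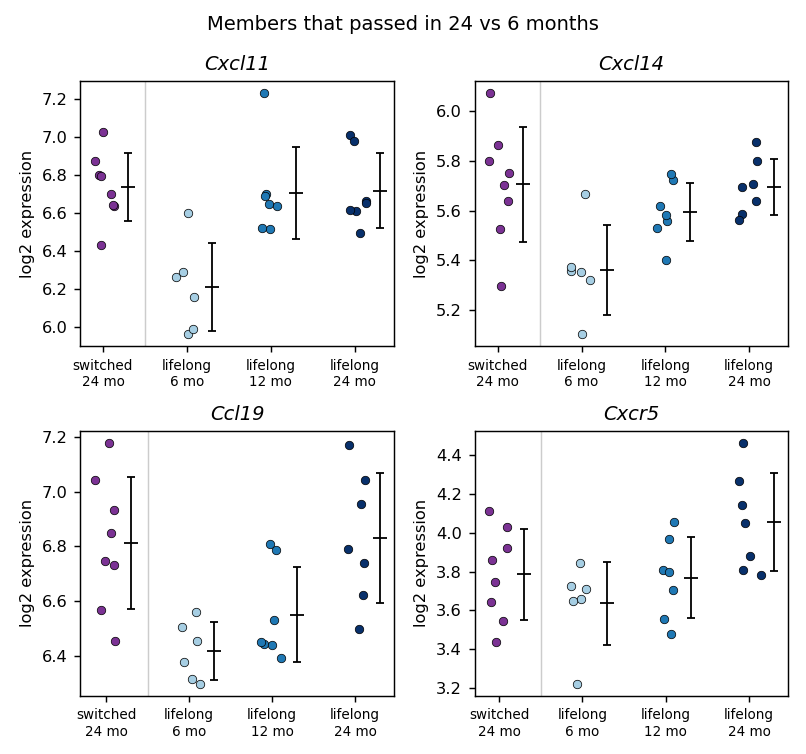
Log2 expression (vertical axis) of the 4 genes that passed at 24 against 6 months, 1 point for each liver, with the mean and SD of each group beside its points. In the lifelong groups the 24-month livers lie mostly above the 6-month livers with some overlap, and Cxcl11 is already higher at 12 months; switched livers stand left of the line.

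Markers of B and plasma cells moved alongside Cxcr5 and Ccl19. The mean level of the 10 measured markers ran from 5.15 to 6.31 at 24 months (median 5.98), against 4.72 to 5.03 at 6 months (median 4.82), so that the groups did not overlap. Of single genes, 2.14% had groups that did not overlap in this comparison. Of the 10, 7 rose at 24 against 6 months: Ms4a1, Cd79b, Cd22, Ighm, Igkc, Jchain and Pax5. Among all probe sets 4.73% passed, and among all genes 6.23%. Igkc, the kappa light chain constant region of antibodies, differed by 3.52 ± 0.61 (limma, adjusted p = 0.00197), and Cd79b, which signals for the antigen receptor of B cells, by 0.84 ± 0.24 (adjusted p = 0.0375). Cd79b also passed at 24 against 12 months (1.25 ± 0.23, limma adjusted p = 0.0439). All 10 markers had an unadjusted p under 0.05 there, against 11.1% of all probe sets. Of 13 T and NK cell markers 0 passed at 24 against 6 months (limma; 2 at an unadjusted p under 0.05), and of 7 dendritic cell markers 0 passed (1 unadjusted). Over all probe sets 19.2% had an unadjusted p under 0.05 at 24 against 6 months. The part of B, T, NK and dendritic cells in the differences of Cxcr5 and Ccl19 was not tested.

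Among the other CXC ligands, Cxcl13, which draws B cells, had the widest spread. It ran from 7.10 to 9.31 at 6 months (median 7.67), from 6.66 to 8.57 at 12 months (median 7.19) and from 5.87 to 11.75 at 24 months (median 8.79). The 24-month livers thus reached both above and below the younger ranges, with an SD of 2.35 against 0.81 at 6 months. The difference at 24 against 12 months was 1.70 ± 0.79 (adjusted p = 0.423), made of 2.57 within G150, 0.98 within G151 and -0.08 within G152. The switched group spanned 7.43 to 12.03 (median 7.94). Cxcl16, which binds CXCR6, had a difference of 0.41 ± 0.18 at 24 against 12 months (adjusted p = 0.394).

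Of the 12 inflammatory CC ligands 0 passed in any comparison (limma). At an unadjusted p under 0.05 the counts were 0 at 12 against 6, 3 at 24 against 6 and 4 at 24 against 12 months. In switched against lifelong livers the count was 0. Over all probe sets the shares were 13.1%, 19.2%, 11.1% and 7.58%, in the same order. Ccl3 (MIP-1 alpha, a ligand of CCR1 made by activated macrophages) ran from 4.67 to 5.47 at 6 months (median 4.98), from 4.38 to 5.33 at 12 months (median 4.98) and from 4.81 to 7.79 at 24 months (median 6.58). In 6 of 7 livers of 24 months it exceeded every 6- and 12-month liver, while replicate 4, at 4.81, lay among them. The difference was 1.33 ± 0.42 at 24 against 6 months (adjusted p = 0.0636) and 1.42 ± 0.40 at 24 against 12 months (adjusted p = 0.178). Without replicate 4 both differences passed (limma, adjusted p = 0.0178 and 0.0440). They passed in no other fit that left out 1 liver, with adjusted p up to 0.149 and 0.314. Within G150, G151 and G152 the difference at 24 against 6 months was 1.49, 0.95 and 1.08.

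Ccl2 (MCP-1, which calls in monocytes) had medians of 4.96, 4.76 and 5.72 at 6, 12 and 24 months. Its range at 24 months, 4.99 to 6.00, overlapped that at 6 months, 4.42 to 5.35, and the difference was 0.68 ± 0.25 (adjusted p = 0.121). Ccl5 (RANTES, made by T cells and NK cells among others) had medians of 6.77, 6.56 and 7.61 in the same order. Its differences were 0.82 ± 0.31 at 24 against 6 months (adjusted p = 0.126) and 0.90 ± 0.30 at 24 against 12 months (adjusted p = 0.234). Ccl6, found in rodents, had a median of 7.98 at 24 months against 7.47 at 6 months, with a difference of 0.62 ± 0.36 (adjusted p = 0.366). Ccl26, a dim probe set, differed by -0.12 ± 0.08 at 12 against 6 months (adjusted p = 0.528). The 6 unnamed ligands of this role (Ccl4, Ccl7, Ccl8, Ccl9, Ccl11 and Ccl12) had differences between -0.21 and 0.47, with a smallest adjusted p of 0.341.

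**Figure D3:**
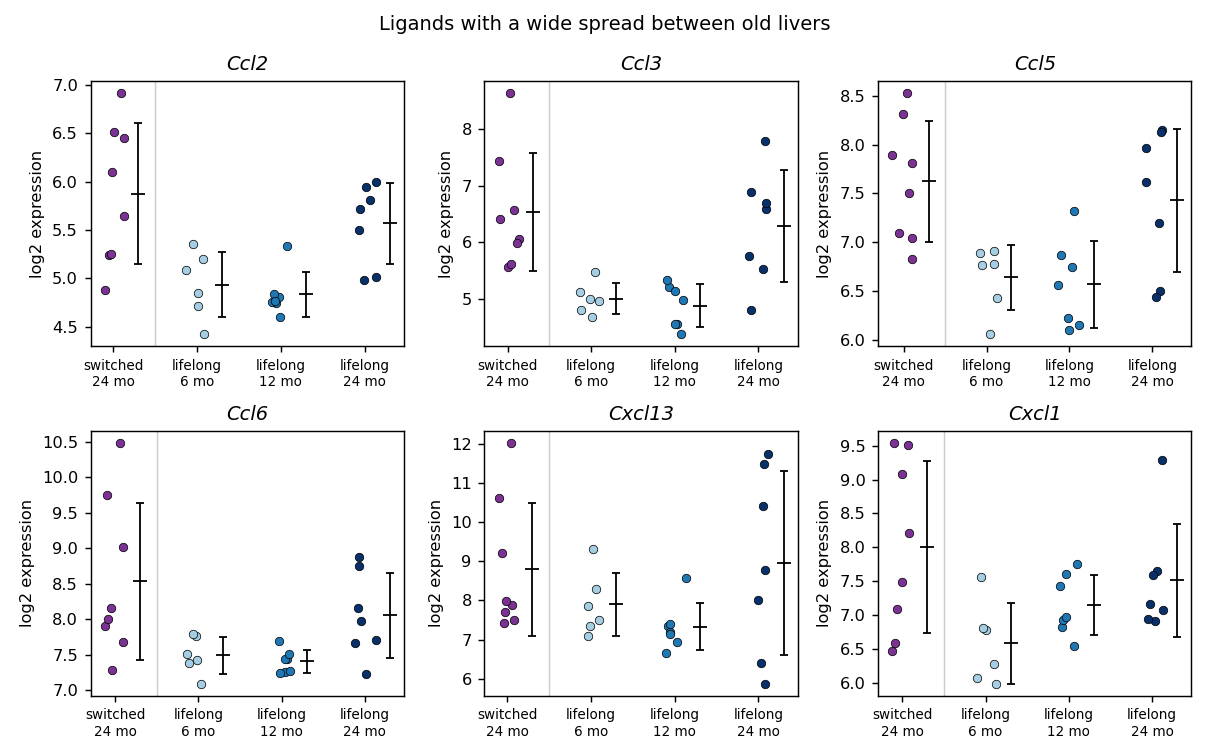
Log2 expression (vertical axis) of 6 ligands, 1 point for each liver, with the mean and SD of each group beside its points. The 6 were picked for a wide spread between livers of 24 months, so their wider spread at that age follows from the choice. Cxcl13 runs from 5.87 to 11.75 in lifelong livers of 24 months and from 7.43 to 12.03 in switched livers.

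Among the neutrophil-attracting ligands, Cxcl1 had medians of 6.53, 6.97 and 7.16 at 6, 12 and 24 months, and replicate 7 at 24 months, at 9.29, stood above the others of its group. The difference at 24 against 6 months was 0.92 ± 0.48 (adjusted p = 0.304). Switched livers ran from 6.47 to 9.54 (median 7.85). Cxcl2, whose promoter holds the same kappa-B run as those of Cxcl1 and Cxcl3, was among the dimmest 30% of probe sets, where differences are compressed, so its spread cannot be set against that of Cxcl1. It kept within 3.31 and 4.53 over all livers and differed by -0.01 ± 0.13 at 24 against 6 months (adjusted p = 0.981). Cxcl3 and Cxcl5 had differences between -0.07 and 0.11 over the 4 comparisons. Cxcl15 had group means between 2.78 and 2.89. Of 9 neutrophil markers 0 passed at 24 against 6 months (limma; 5 at an unadjusted p under 0.05).

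Among the homing CC ligands other than Ccl19, Ccl25, which steers T cells to the gut and thymus, had medians of 6.95, 7.00 and 6.81 at 6, 12 and 24 months. Its difference at 24 against 12 months was -0.18 ± 0.07 (adjusted p = 0.339), and its 2 probe sets correlated at r = 0.68 over the 28 arrays. Ccl22, a CCR4 ligand of macrophages and dendritic cells, ran from 3.71 to 4.54 in switched livers (median 4.28) against 3.14 to 4.37 in lifelong livers of 24 months (median 3.80). The difference was 0.38 ± 0.15 (adjusted p = 0.558). Ccl1, Ccl17, Ccl20 and Ccl28 had differences between -0.16 and 0.15. Xcl1, made by T and NK cells, had group means between 4.46 and 4.54, and Cx3cl1, the membrane-bound fractalkine, between 5.48 and 5.64.

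Of the 9 CC receptors 0 passed in any comparison (limma). At an unadjusted p under 0.05 the counts were 0, 2, 3 and 1, in the order of comparisons given for the medians. Over all probe sets the shares were 13.1%, 19.2%, 11.1% and 7.58%, in the same order. Ccr1, a receptor of Ccl3 and Ccl5, had medians of 3.15, 3.15 and 3.32 at 6, 12 and 24 months and a difference of 0.31 ± 0.11 at 24 against 12 months (adjusted p = 0.268). Ccr7, the receptor of Ccl19, had medians of 6.14, 6.23 and 6.37 and a difference of 0.25 ± 0.10 at 24 against 6 months (adjusted p = 0.152). Switched livers ran from 6.29 to 6.88 for Ccr7 (median 6.71) against 6.05 to 6.73 in lifelong livers (difference 0.17 ± 0.09, adjusted p = 0.71). Ccr9, the receptor of Ccl25 and a dim probe set, was 3.75 to 4.10 in switched livers (median 3.85) against 3.35 to 3.96 in lifelong livers of 24 months (median 3.57). All 8 switched livers lay above the lifelong mean, and the difference was 0.27 ± 0.10 (adjusted p = 0.514). Ccr8 differed by -0.18 ± 0.09 in the same comparison (adjusted p = 0.690). Ccr1l1, Ccr4, Ccr6 and Ccr10 had differences between -0.12 and 0.11.

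Of the 8 remaining receptors Cxcr5 alone passed. Cxcr4, the receptor of Cxcl12 on most white blood cells, had medians of 4.92, 4.81 and 5.38 at 6, 12 and 24 months and a difference of 0.61 ± 0.19 at 24 against 12 months (adjusted p = 0.198). Its ligand Cxcl12 and the ligand Cxcl17 had differences between -0.12 and 0.05. Cx3cr1, a receptor of monocytes and macrophages, had medians of 4.90, 5.19 and 5.42 at those ages. It ran from 5.38 to 6.10 in switched livers (median 5.64) against 4.87 to 5.88 in lifelong livers of 24 months (difference 0.33 ± 0.15, adjusted p = 0.612). Cxcr1, a neutrophil receptor, had medians of 5.08, 4.58 and 4.86, and its difference of -0.38 ± 0.12 at 12 against 6 months did not pass (adjusted p = 0.125). Without 6-month replicate 1 it passed (-0.48, limma adjusted p = 0.0293). It passed in no other fit that left out 1 liver, with adjusted p up to 0.366. Cxcr2, Cxcr3, Cxcr6 and Xcr1 had differences between -0.12 and 0.27.

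Ccr3, the eotaxin receptor of eosinophils, was near the dim end of the array in most livers but not in all. In 23 livers it lay between 2.92 and 4.33, and in the other 5 between 5.34 and 6.44. These 5 were switched replicates 1, 4 and 7 (6.04, 6.44 and 5.36) and lifelong 24-month replicates 5 and 6 (5.82 and 5.34). At 24 against 6 months the difference was 0.72 ± 0.51 (adjusted p = 0.485), and in switched against lifelong livers 0.37 ± 0.48 (adjusted p = 0.919).

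Its ligand Ccl24 (eotaxin-2) was compared with it as 1 of 24 pairs of a ligand and its receptor, over each liver's deviation from its group mean. Ccl24 and Ccr3 were the only pair that passed (two-sided permutation test within groups, 100000 resamples, adjusted p = 0.00840 over the 24 pairs). Since 5 livers stood apart in Ccr3, no correlation over all 28 is given. Ccl24 ran from 5.59 to 7.36 in those 5 and from 4.30 to 5.72 in the other 23. Within the 23 livers r was 0.28 (permutation p = 0.202) and rho 0.03 (permutation p = 0.890), and r was -0.25 without the 2 livers farthest from the median of Ccl24. Without the 5 livers the relation thus did not pass, and the call rests on them. In the 18 livers of prefix G150 alone the pair did not pass (adjusted p = 0.0625, permutation), although its coefficient was no smaller with those fewer livers. Without the 2 livers farthest from the median of Ccl24 it passed (adjusted p = 0.0266, permutation). The livers with the 5 highest Ccl6 values were the same 5, at 8.75 to 10.48, against at most 8.15 elsewhere. Other ligands shared these livers in part. Of the 5 highest livers, 4 were among them for Ccl7, Ccl3, Cxcl13 and Ccl24 itself. The count was 3 of 5 for Ccl2, and 1 of 5 for Ccl11, another eotaxin. The pairs Cxcl10 with Cxcr3 and Cxcl1 with Cxcr2 had adjusted p of 0.0660 and 0.0744 in the same permutation test.

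**Figure D4:**
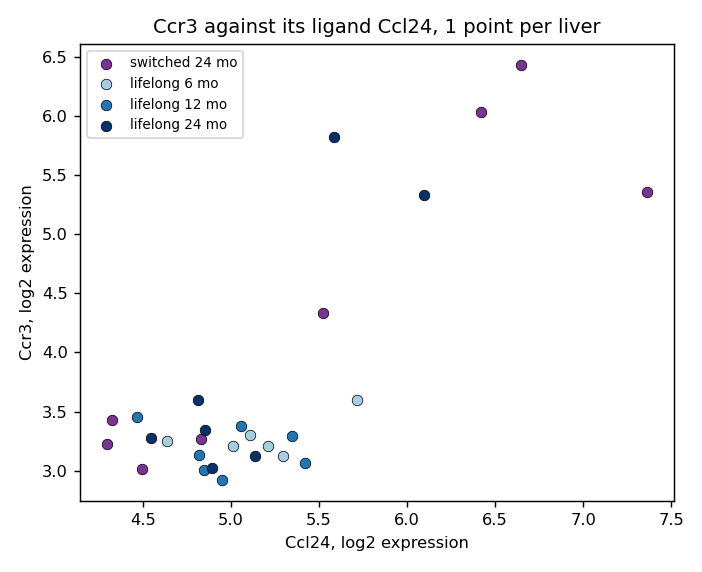
Ccr3 (vertical axis) against Ccl24 (horizontal axis), both as log2 expression, 1 point for each of the 28 livers, coloured by group. The 5 livers with Ccr3 at 5.34 or more, 3 switched and 2 lifelong of 24 months, stand apart from the other 23, among which Ccr3 lies between 2.92 and 4.33.

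The livers also differed in how many of the 51 genes stood high. A gene was counted for a liver when it lay above the highest of the 6 livers of 6 months. Among lifelong livers of 12 months this held for 3 to 14 of the 51 genes. At 24 months, replicates 1, 3, 5 and 6 had 16, 21, 20 and 22 such genes, replicates 2 and 4 had 6 and 7, and replicate 7 had 12. In the switched group 6 livers had 20 to 26, and replicates 3 and 5 had 7 and 9. Over all genes the share was 15.3% to 23.9% in every liver, so that the switched liver with 26 of 51 stood above its own background of 21.2%, and the lifelong liver with 6 of 51 (11.8%) below its own of 20.1%. The SD between livers was larger at 24 than at 6 months for 35 of 51 genes (68.6%), against 56.3% of all genes.

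**Figure D5:**
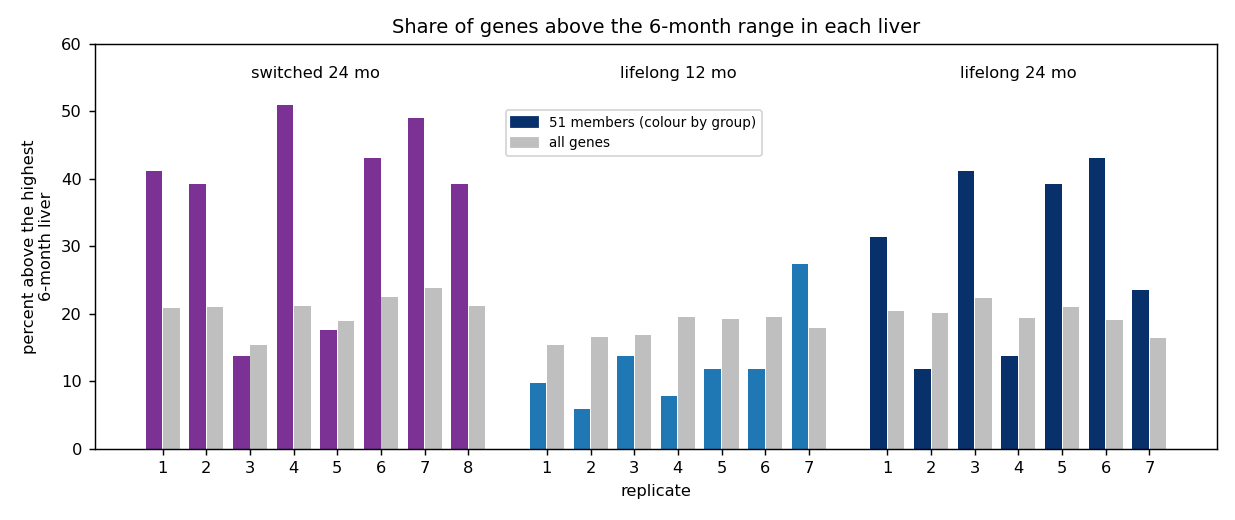
Percent of the 51 chemokine and receptor genes (coloured bars) and of all genes (grey bars) that lay above the highest 6-month liver, for each liver of the switched group and of the 12- and 24-month lifelong groups. All-gene bars lie between 15.3% and 23.9%, while chemokine bars start at 5.88% (3 of 51 genes) and reach 26 of 51 genes.

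Macrophage markers also varied between livers of 24 months. The mean level of 12 Kupffer cell and macrophage markers ran from 7.58 to 9.10 at 24 months (median 8.18), lowest in replicate 4 and highest in replicate 3, against 7.62 to 8.14 at 6 months (median 7.84). In switched livers it ran from 7.72 to 9.63 (median 8.18), lowest in replicate 5 and highest in replicate 7. At 24 against 6 months 2 of the 12 rose, Lyz2 (1.00 ± 0.27, limma adjusted p = 0.0334), the lysozyme of macrophages and neutrophils, and Itgax (0.71 ± 0.21, adjusted p = 0.0491), an integrin of macrophages and dendritic cells. In that comparison 4.73% of all probe sets and 6.23% of all genes passed. At 24 against 12 months 0 of the 12 passed. There 9 had an unadjusted p under 0.05 (limma), against 11.1% of all probe sets. All 12 differences were positive, with a median of 0.75, where 44.7% of all genes had a positive difference. The part of macrophage number in the spread of the ligands was not tested.

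Genes around the receptors gave few calls. Of 19 signalling genes downstream of chemokine receptors, 1 rose at 24 against 6 months, a share near the 4.73% of all probe sets and 6.23% of all genes that passed. It was Prex1, a Rac activator in neutrophils and macrophages, at 6.50 to 7.20 in 24-month livers (median 6.84) against 5.96 to 6.56 in 6-month livers (median 6.19), a difference of 0.60 ± 0.11 (limma, adjusted p = 0.00329). All 19 had a positive difference, against 49.5% of all genes, with a median of 0.17; the other 18 did not pass. Of 9 atypical receptors and related genes, which include scavengers of chemokines, 0 passed at 24 against 6 months, with a median of 0.21 (limma, 5 at an unadjusted p under 0.05). The related genes included Pf4 and Ppbp, chemokine ligands whose symbols fall outside the naming rule of the 51 genes. Both also stood among the platelet markers. Of 12 cytokines known to induce chemokines 0 passed (4 unadjusted): Tnf had a difference of 0.58 ± 0.23 (adjusted p = 0.142) and Ifng one of 0.15 ± 0.09 (adjusted p = 0.382). In switched against lifelong livers of 24 months 0 genes of these 3 lists passed (limma; 3 signalling genes at an unadjusted p under 0.05).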

How the data were processed

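RNA from 28 livers was measured on whole-transcript arrays of a single colour. The deposited values are log2 expression made by the authors with RMA, per the submitters' processing notes, which give no version. They were used as deposited, and all 28 columns matched a sample. RMA levels compress differences of dim probe sets, and a level cannot be compared between genes.

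The platform annotation gives 1 gene for 21218 of 35556 probe sets, several for 1881 and no gene for 12457. Ccl21a, Ccl21b, Ccl21c and Ccl27a had only probe sets shared by several genes and were not used here.

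limma 3.58.1 (R 4.3.3) fitted all 28 arrays with the 4 groups and the array-name prefix as fixed terms, with empirical Bayes moderation, two-sided tests and Benjamini-Hochberg adjustment over all probe sets at 0.05. The fit was tested on simulated data with normal noise of 1 spread per probe set in all groups, and with shifts given only to brighter probe sets. That test does not cover dim genes or genes whose spread differs between groups. Means carry SD and differences the SE of the fit. Each array is the liver of 1 mouse. Arrays correlated at 0.978 to 0.992 with each other.

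Genes named with values are those that passed, the 6 with the smallest p in each comparison, the 3 with the widest range of group means in each role and both genes of a passing pair, with up to 4 genes of a marker list. The split of livers by Ccr3, the ranks of other ligands in those livers and the promoters shown for Cxcl1, Cxcl2, Cxcl3 and Cxcl10 were chosen after values were seen. The genes, lists and tests were chosen with earlier results of these data known. Other steps ran in Python 3.11.15 (numpy 2.4.6, pandas 2.3.3; figures in matplotlib 3.10.9). The alternatives tried were no prefix term, prefix subsets, only the groups compared, dim probe sets left out, other scalings and moderation, array weights, a replicate block, 1-gene probe sets only, and single livers left out.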

Additional observations from a re-analysis of the deposited data

Results flagged for a closer look

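In 9 of 116 sets of 1 gene and 1 group, a single liver stood apart from the others of its group by Dixon's test at the 95% level. The sets were the 29 named genes in the 4 groups. Chance alone gives about 1 in 20 for independent sets of genes not picked by their values. These genes were picked in part by their values and share livers, so that rate is only a rough guide. Replicate 7 of the 12-month group was the highest for Ccl2 (5.33) and for Cxcl13 (8.57), and it also had the most chemokine genes above the 6-month range in its group, 14 of 51. Replicate 5 of the 12-month group was the highest for Cxcl11 (7.23), and replicate 1 of that group for Cxcr1 (5.00). In the lifelong group of 24 months, replicate 7 was the highest for Ccr1 (4.02) and for Cxcl1 (9.29). At 6 months, replicate 3 was the highest for Ccr3 (3.60) and the lowest for Cxcr5 (3.22), and replicate 2 was the lowest for Cxcl16 (6.19).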

How the results depend on the processing

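The 24 named gene and comparison pairs gave 632 values under the alternatives: 568 kept direction and side of the threshold, 57 lost the call, 6 gained one and 1 reversed, Ccr8 at 12 against 6 months, at 0.11 with prefixes G151 and G152 alone. The causes were not tested. Chemokine genes called at 12 against 6 months numbered 0 without the prefix term, in G150 alone, in G151 and G152 alone and with only the groups compared, and 0 to 2 without 1 liver. At 24 against 6 months they numbered 1 in G150 alone, with only the groups compared and with the replicate block, in each case Cxcl11, 0 in G151 and G152 alone, 2 without the 2 arrays whose names carry a suffix, and 1 to 4 without 1 liver. At 24 against 12 months they numbered 0 to 1 without 1 liver, and in switched against lifelong livers 0 to 0. Ccl3 at 24 against 6 months passed with dim probe sets left out, with array weights and on 1-gene probe sets alone. The number of passing pairs was 0 in G150 alone, where Ccl24 and Ccr3 had a coefficient no smaller than over all livers. In the 24-month against 6-month comparison, the calls of Cxcl14, Ccl19 and Cxcr5 were lost under 7, 5 and 5 of the alternatives other than leaving out 1 liver, the replicate block among them (adjusted p = 0.0704, 0.0804 and 0.0649).

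Probe sets called at 12 against 6 months numbered 210, against 108 without the prefix term, 0 in G150 alone, 0 in G151 and G152 alone, 22 with only the groups compared, 518 with array weights, 122 with the replicate block, 46 without the suffix arrays, 332 on 1-gene probe sets and 7 to 546 without 1 liver. At 24 against 6 months they numbered 1681, against 194 in G150, 3 in G151 and G152, 736 with only the groups compared and 831 to 2370 without 1 liver. At 24 against 12 months they numbered 9, against 3 without the prefix term, 0 in G150, 0 in G151 and G152, 1 with only the groups compared, 33 with dim probe sets left out, 23 with array weights, 0 with the replicate block, 39 without the suffix arrays, 31 on 1-gene probe sets and 1 to 124 without 1 liver. In switched against lifelong livers they numbered 7, against 2 in G150, 1 in G151 and G152, 0 with only the groups compared, 2 with array weights, 2 with the replicate block, 1 without the suffix arrays and 1 to 36 without 1 liver. Same-numbered livers of different groups had a median correlation of -0.00 in their deviations (39 pairs, -0.13 to 0.15). For other numbers the median was -0.01 (254 pairs, -0.23 to 0.25). Whether replicate numbers pair the livers was not tested, and these deviations still held differences between prefixes. Subsets hold fewer livers, and the number of arrays limits the precision. Dim signals near background limit what could be seen for 17 of the 51 genes.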

Other observations

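Markers of other liver cells gave few calls. At 24 against 6 months 0 of 10 endothelial markers passed (limma; 1 at an unadjusted p under 0.05), 0 of 10 stellate cell and fibroblast markers (4 unadjusted), 0 of 5 cholangiocyte markers (1 unadjusted) and 0 of 5 platelet markers (3 unadjusted). Of 13 hepatocyte markers 1 fell, Tat, a liver enzyme of tyrosine breakdown, with a difference of -0.42 ± 0.12 (limma, adjusted p = 0.0355). In switched against lifelong livers of 24 months 0 genes of these 5 lists passed (limma; 1 endothelial, 3 stellate cell and 1 cholangiocyte marker at an unadjusted p under 0.05).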
